A study of Mus musculus with 2 samples.

Results

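The 10 genes described here encode the core of 2 junctions that hold cells to their neighbours: the adherens junction (the cadherins Cdh1, Cdh2 and Cdh11 and the catenins Ctnnd1, Ctnnb1 and Ctnna1) and the desmosome (the cadherins Dsc2 and Dsg2 and the plakin Dsp), with Jup, plakoglobin, which works in both. Their members were taken as every probe set whose gene symbol in the platform annotation equals 1 of these names, which gave 23 of 22626 probe sets and 10 of 12393 genes. The genes were chosen by the Cbs null over control ratios of these same arrays, which were already known, so those ratios are given as a description, with no test. With each of the 10 genes shown by its brightest probe set, Ctnnd1 and Dsc2 were more than 2-fold lower in the Cbs null sample. The other 8 were less than 1.5-fold apart by that measure.

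RNA came from implantation sites, which are pieces of pregnant uterus with the embryo and its maternal surroundings, dissected on day 8 of pregnancy from 4-month-old females whose genetic background was C57Bl/6J X OLA129. Controls were represented by 1 Affymetrix array. The Cbs null group, from females homozygous for loss of cystathionine beta-synthase, an enzyme that turns homocysteine into cystathionine, was represented by 1 array as well. The labels used here do not give the kind of Cbs allele, the genotype of the embryo in a site or the number of animals behind an array. As each genotype had a single array, replicates are lacking, every difference below is a difference between these 2 arrays and no p-value is given. The number of arrays limits the precision. Signals are in the arbitrary linear units of the deposited values, and a log2 ratio is that of Cbs null over control, so that -1 is 2-fold lower and 1 is 2-fold higher in Cbs null. The signals of 2 probe sets are not on a common scale, so a signal is compared between the arrays and never between genes.

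In an adherens junction, classical cadherins of neighbouring cells bind each other outside the cell. Inside, p120 catenin (Ctnnd1) binds the part of the cadherin tail next to the membrane and keeps the cadherin at the surface, and beta-catenin (Ctnnb1) or plakoglobin (Jup) binds the end of the tail and links it through alpha-catenin (Ctnna1) to actin. Desmosomes are built in the same way from other parts: desmocollins (Dsc) and desmogleins (Dsg) span the membrane, plakoglobin and plakophilins bind their tails, and desmoplakin (Dsp) ties the complex to intermediate filaments. In the uterus the luminal and glandular epithelium carries E-cadherin and desmosomes and loosens them around implantation, while stromal cells that decidualize use other cadherins.

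Ctnnd1 had the lowest ratio of the members, so the bases before both of its transcript starts in the RefSeq table are shown (build GRCm38.p6, minus strand, 250 bases each, with capitals marking every CG pair). The first window is chr2:84658978-84659227 and the second, at a start further into the gene, is chr2:84650741-84650990.
Ctnnd1, first start: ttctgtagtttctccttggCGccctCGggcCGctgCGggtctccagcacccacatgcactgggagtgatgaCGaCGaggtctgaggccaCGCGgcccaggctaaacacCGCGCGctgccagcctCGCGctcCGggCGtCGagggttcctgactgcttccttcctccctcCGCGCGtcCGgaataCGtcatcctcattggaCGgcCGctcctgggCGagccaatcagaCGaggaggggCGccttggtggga
Ctnnd1, second start: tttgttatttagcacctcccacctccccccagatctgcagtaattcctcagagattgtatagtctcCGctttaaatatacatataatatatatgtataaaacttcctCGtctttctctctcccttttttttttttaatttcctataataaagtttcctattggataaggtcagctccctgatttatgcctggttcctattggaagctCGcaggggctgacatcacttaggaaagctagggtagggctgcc
The first window holds 26 CG pairs, and 9.59% of the 32851 windows of this length in the table hold as many or more. The second holds 3, a number that 71.0% of windows reach. The letters TATAAA, searched on both strands, occur in the second window and not in the first, and in 12.4% of all windows. The E-box CAGGTG (both strands), to which the Snail and Zeb repressors of E-cadherin bind, is in neither window and in 17.2% of all windows. These are descriptions of letters. The arrays do not tell which start the Ctnnd1 signal came from, since no position of the probe set was used here. Of the other members, windows were examined for Ctnnb1, Jup and Dsp, which with Ctnnd1 makes 6 windows. The 4 windows of those 3 genes all contain the GC box GGGCGG (both strands; 32.7% of all windows) and between 13 and 43 CG pairs, and neither Ctnnd1 window contains GGGCGG. The windows of Ctnnb1 overlap in part, so they are not separate stretches. No window was examined for the remaining members, Dsc2 among them, so the letters do not set Ctnnd1 apart from the members as a whole.

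Both arrays had the same overall level, with a 2% trimmed mean of 200.1 on each. Values under a floor of 14.3, at percentile 25 over both arrays, were set to it, and probe sets were compared where the mean of both signals was at least 70.5, which left 7079 genes, each shown by the brightest of its probe sets (on the mean of both arrays). Cbs itself lay under that filter: its 2 probe sets read 30.3 and 29.9 in control against 23.8 and 22.3 in Cbs null, which does not check the genotype. The ratio of 3' to 5' signal, a sign of RNA quality, for Gapdh was 1.07 in the control and 1.15 in the Cbs null sample. For beta-actin it was 1.54 in the control and 1.61 in the Cbs null sample. The tissue markers listed for decidual and stromal cells were present, with 9 of 10 genes past the filter and none under the floor on both arrays. Of the 23 probe sets of the junction genes 14 passed the filter, so that each of the 10 genes was compared. Of the 9 that did not pass, 3 were under the floor on both arrays and have no ratio, and 6 have a ratio but a dim signal.

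**Figure D1:**
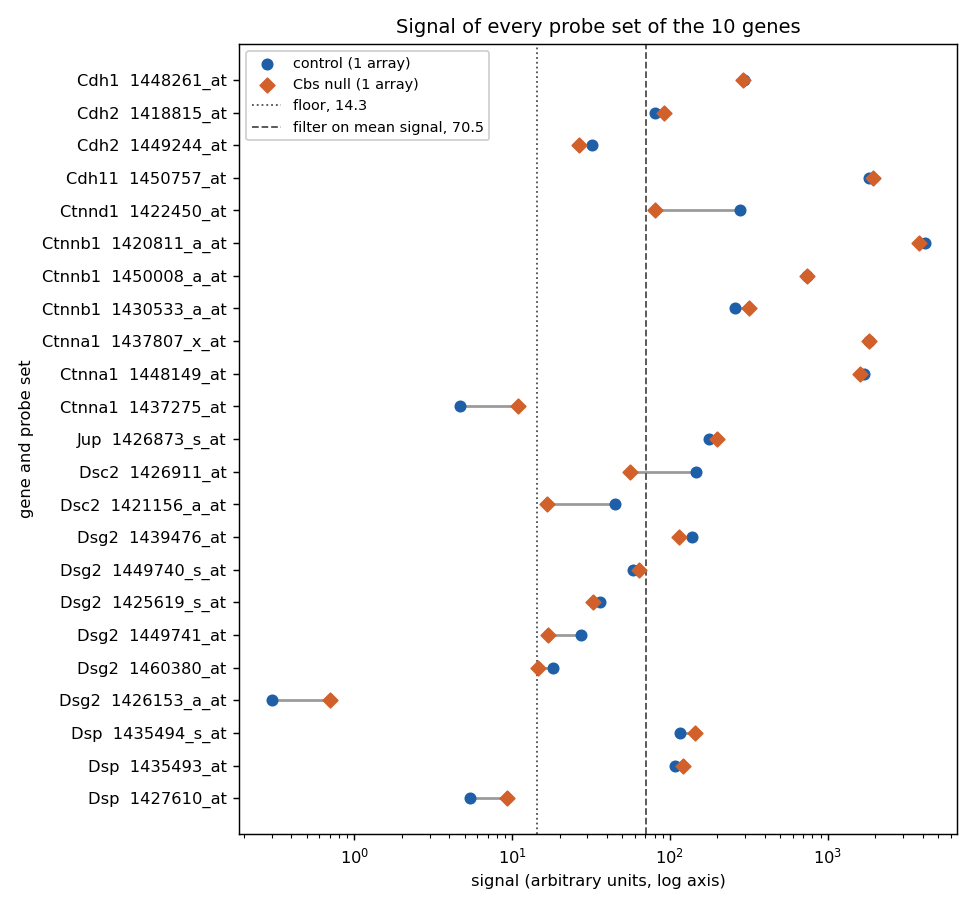
Signal (log axis, arbitrary units) of each of the 23 probe sets of the junction genes on the control array (circles) and the Cbs null array (diamonds), joined by a line; the dotted line is the floor of 14.3 and the dashed line the filter of 70.5, which applies to the mean of both signals. Among the probe sets past the filter, the long lines are those of Ctnnd1 (277.2 to 80.7) and of the brighter Dsc2 probe set (146.7 to 55.6).

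The classical cadherins differed little between the arrays. Cdh1, E-cadherin of epithelium, read 293.8 in control and 290.3 in Cbs null, a log2 ratio of -0.02 in its single probe set. Cdh11, a type II cadherin of mesenchymal and stromal cells, read 1832.3 in control and 1929.4 in Cbs null, a ratio of 0.07. Cdh2, N-cadherin, which neural and mesenchymal cells carry, read 80.5 in control and 91.6 in Cbs null, a ratio of 0.19 in its brighter probe set. The other Cdh2 probe set, below the filter, read 31.9 in control and 26.6 in Cbs null, at -0.26, so the direction of Cdh2 was not the same in both. All 3 cadherins lay within 1.2-fold in the probe set that represents them, as 77.1% of all genes compared did.

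Of the catenins that bind the cadherin tail, 1 stood apart. Ctnnd1, p120 catenin, read 277.2 in control and 80.7 in Cbs null, which is 3.43-fold lower, a log2 ratio of -1.78. It was the lowest ratio of all 7079 genes compared. Both signals were above the filter value, the Cbs null signal by 10.2 units. Ctnnd1 had a single probe set (1422450_at), and no other probe set used here is annotated to it, so its ratio has no second measure. Kept probe sets were split into 3 equal parts by signal, and in the middle one, where this probe set lies, 95% of ratios fell between -0.47 and 0.57.

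The proteins that Ctnnd1 works beside did not share this difference in signal. Ctnnb1, beta-catenin, which also acts in Wnt signalling, read, in its brightest probe set, 4121.2 in control against 3766.7 in Cbs null, a ratio of -0.13. Its other probe sets read 735.9 in control and 741.7 in Cbs null, at 0.01, and 258.6 in control and 317.1 in Cbs null, at 0.29. The 3 Ctnnb1 probe sets therefore had both signs, and with the median over probe sets in place of the brightest one its ratio was 0.01. Ctnna1, alpha-catenin, read 1829.1 in control and 1821.9 in Cbs null, at -0.01, in a probe set that can bind more than 1 transcript. The other measured probe set read 1697.6 in control and 1610.5 in Cbs null, at -0.08, and the last one was under the floor on both arrays. The sign of the brightest Ctnna1 probe set changed with the scaling: the ratio was 0.03 after quantile normalization and 0.02 after removal of a loess trend. Jup, plakoglobin, read 178.1 in control and 200.2 in Cbs null, a ratio of 0.17 in its single probe set, which can also bind more than 1 transcript.

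The 2 desmosomal cadherins differed in their ratios. Dsc2, desmocollin 2, read, in its brighter probe set (1426911_at), 146.7 in control against 55.6 in Cbs null, 2.64-fold lower, a log2 ratio of -1.40. It was number 3 from the lowest of the genes compared, and it passed the filter through its control signal, the Cbs null signal being below 70.5. The second Dsc2 probe set (1421156_a_at), below the filter, read 44.6 in control against 16.7 in Cbs null, 2.67-fold lower, at -1.42. Both probe sets thus had the same direction and nearly the same size, but the Cbs null signal of the second lay close to the floor of 14.3. In the dimmest of the 3 parts, where the brighter one lies, 95% of ratios fell between -0.58 and 0.67.

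Dsg2, desmoglein 2, the desmosomal cadherin that pairs with Dsc2 in simple epithelia, read 137.9 in control and 114.0 in Cbs null, a ratio of -0.27. It has 6 probe sets, of which 1 passed the filter. Of the 5 with a ratio, 4 were below 0, with a lowest value of -0.68 (27.2 in control and 17.0 in Cbs null), and 1 was above 0, at 0.13 (58.3 in control and 63.8 in Cbs null). None was 2-fold apart. The sixth read 0.3 in control and 0.7 in Cbs null, under the floor on both arrays. Dsp, desmoplakin, read 115.4 in control and 143.7 in Cbs null, a ratio of 0.32, the highest of the 10 genes. Its second kept probe set read 107.3 in control and 121.2 in Cbs null, at 0.18, so both kept probe sets were on the higher side, and the third was under the floor on both arrays.

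**Figure D2:**
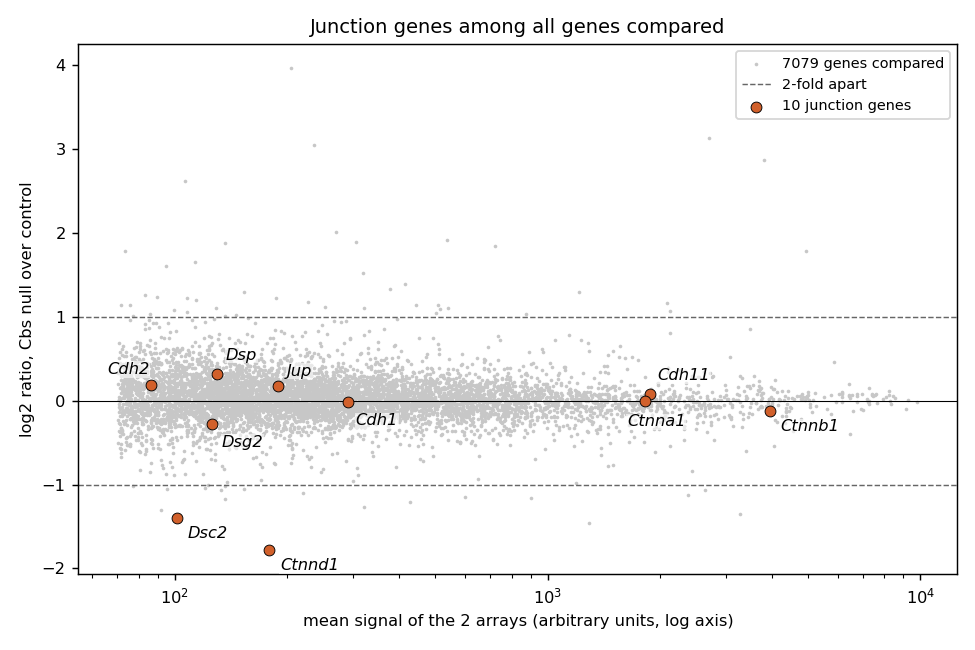
Log2 ratio of Cbs null over control against the mean signal of both arrays (log axis) for the 7079 genes compared (grey) and the 10 junction genes (orange, named); dashed lines mark 2-fold. Ctnnd1 at -1.78 and Dsc2 at -1.40 lie below the lower dashed line, and the other 8 lie between -0.27 and 0.32.

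Counted over the 10 genes, 2 were at least 2-fold lower and 0 at least 2-fold higher, where 0.283% of all genes compared were 2-fold lower and 0.622% were 2-fold higher. The genes were chosen with this contrast known, so nothing is read from that count. The median log2 ratio of the 10 was -0.01, beside 0.02 for all genes compared, with 6 ratios below 0 (44.9% of all genes) and 4 above (55% of all genes). Of the 14 kept probe sets, 12 lay within the range that holds 95% of probe sets in their part of the signal range, and the exceptions were those of Ctnnd1 and Dsc2. As the genes were chosen by these ratios, nothing is read from those exceptions either. For the 2284 genes that had more than 1 kept probe set, the difference between the ratios of the 2 brightest had an SD of 0.30. The ratios of the 8 other genes were of that size or smaller, except that of Dsp, at 0.32. This SD compares probe sets read on the same 2 arrays. It holds no spread between animals or arrays and sets no limit of noise for a ratio. In the order of ratios from the lowest, Gzmc, a granzyme of natural killer cells, lay between Ctnnd1 and Dsc2 at -1.46. The next genes after Dsc2 were Gzmd, another granzyme, at -1.35 and Alb, serum albumin, at -1.30. With 2 arrays a pattern is a single ratio, so being next in that order says no more than that the ratios are close.

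Genes of the same complexes outside the 10 were taken from lists that were chosen with earlier results of these data known. Over all lists of junction genes and their partners, 62 of 114 genes on the arrays passed the filter. None of the 62 was 2-fold apart in either direction, where 0.283% of all genes compared were 2-fold lower and 0.622% 2-fold higher. Of the 62, 2 were at least 1.5-fold higher (2.46% of all genes compared) and 0 at least 1.5-fold lower (1.33% of all genes compared). Their median was 0.02, with 34 above 0 and 28 below.

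Other catenins and cytoplasmic partners of the cadherin complex had a median of -0.09 over 15 genes compared, 6 above 0 and 9 below. Actn1, an alpha-actinin that crosslinks actin, read 2757.4 in control and 2490.7 in Cbs null, at -0.15. Vcl, vinculin, which alpha-catenin recruits under tension, read 2400.1 in control and 2412.4 in Cbs null, at 0.01. The relatives of p120 catenin, named here after their values were seen, gave little signal apart from Pkp4, whose signal was 453.5 in control against 424.8 in Cbs null, at -0.09. Arvcf read 34.1 in control and 31.8 in Cbs null, and Ctnnd2, which neurons carry, 26.7 in control and 19.2 in Cbs null. Both lay below the filter, and neither was higher on the array where Ctnnd1 was lower. Plekha7, a junction protein that binds p120 catenin, had the lowest ratio of the list, at -0.41 (184.7 in control and 138.6 in Cbs null), and was likewise picked after its value was seen. The other kept probe set of Plekha7 was at -0.10 (89.0 in control and 82.8 in Cbs null).

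Other classical and type II cadherins were mostly dim, with 3 of 12 past the filter. Cdh5, VE-cadherin of endothelium, read 189.0 in control and 211.7 in Cbs null, at 0.16, and Cdh13, the cadherin without a cytoplasmic tail, read 85.1 in control and 108.0 in Cbs null, at 0.34. Cdh3, P-cadherin, picked after its value was seen, read 97.4 in control and 69.7 in Cbs null, at -0.48. Of the nectins, adhesion molecules that sit beside cadherins, Nectin2 had 0.25 (318.2 in control and 378.8 in Cbs null) and Nectin3 -0.20 (311.0 in control and 270.7 in Cbs null). The other kept probe set of Nectin3 had 0.22, so its direction was not settled.

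Phosphatases and kinases that act on the cadherin complex had a median of 0.12 over 10 genes compared. Ptpn1, a phosphatase that acts on beta-catenin, had -0.19 and the receptor phosphatase Ptprf 0.34, from 398.8 in control to 504.0 in Cbs null. Of the transcription factors that repress E-cadherin, 4 of 6 were compared, with a median of -0.14. Tcf4 had 0.04, with kept probe sets of both signs, and Zeb1 -0.18. Snai1, the Snail repressor, lay below the filter, at 54.4 in control and 68.9 in Cbs null. Snai2, of the same family, passed the filter and had the lowest ratio of the list, at -0.39. It read 295.8 in control and 226.3 in Cbs null, and was picked after its value was seen. Cdh1, which these factors repress, was at -0.02.

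Among other desmosomal genes, 3 of 8 on the arrays passed the filter, with a median of -0.09. Perp, a membrane protein of desmosomes, read 206.5 in control and 179.3 in Cbs null, at -0.20, and Pkp2, the plakophilin of simple epithelia and heart, read 169.5 in control and 158.7 in Cbs null, at -0.09. Ppl, periplakin, picked after its value was seen, was on the other side, at 0.50 (73.0 in control against 103.1 in Cbs null). The other desmocollins were at or near the floor: Dsc3 read 22.1 in control and 6.8 in Cbs null, and Dsc1 was under the floor on both arrays. Dsc2 was therefore the 1 desmocollin past the filter.

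Intermediate filament genes, whose products desmosomes anchor, had a median of 0.27 over 6 genes compared, 5 of them above 0. Krt18, a keratin of simple epithelia, read 539.9 in control against 839.6 in Cbs null, 1.56-fold higher, at 0.64. Vim, vimentin of stromal cells, read 4885.2 in control and 4911.4 in Cbs null, at 0.01, and its other kept probe sets were at -0.15 and -0.13. Krt18 and Dsc2 thus lay on opposite sides of 0 on these arrays.

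**Figure D3:**
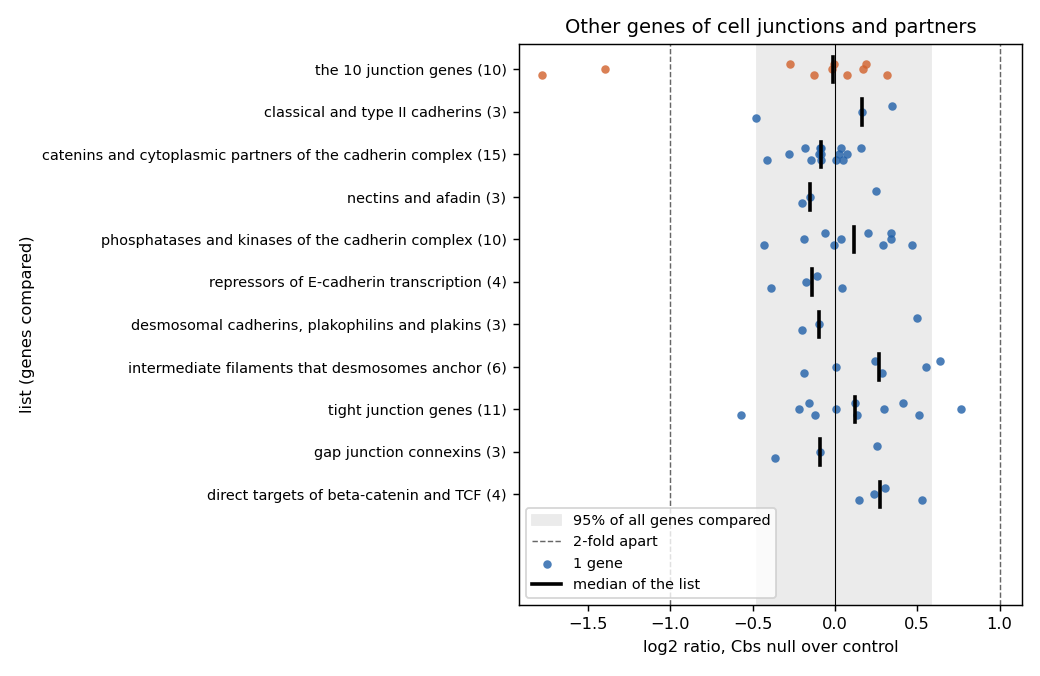
Log2 ratio of Cbs null over control for the 10 junction genes (orange) and for the genes compared of each of 10 lists of junction genes and partners (blue), with the number of genes in brackets; black bars are medians, the grey band holds 95% of all genes compared, from -0.48 to 0.58, and dashed lines mark 2-fold. Ctnnd1 and Dsc2, at the far left of the top row, are the points past 2-fold.

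Markers of cell types were read in the same samples, and several lists differed between the arrays. These lists, too, were chosen with earlier results of these data known. In bulk tissue fewer cells of a type and less RNA per cell cannot be told apart. Each summed signal below is over all markers of a list on the arrays, whether or not they passed the filter, each by its brightest probe set. Of 12 epithelial markers 11 were compared, 10 had a ratio above 0 and 1 below, and the median was 0.55. The summed signal of all 12 was 5302.6 in control against 17343.9 in Cbs null, and none was under the floor. The sum rested on Prss28 (918.9 in control and 6692.4 in Cbs null), the highest, and Prss29 (2220.1 in control and 7620.0 in Cbs null), proteinases of uterine glands and the 2 markers at least 2-fold apart. Elf3, an epithelial transcription factor, was the lowest, at -0.02. Ctnnd1 and Dsc2 were thus lower on the array on which epithelial markers were higher, while Cdh1 was within 1.2-fold. The part of epithelial content in these ratios was not tested.

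Natural killer cell markers lay on the same side as Ctnnd1 and Dsc2. All 8 compared, of 9 on the arrays, were below 0, with a median of -0.91. The ninth, Ncr1, an activating receptor, was below the filter and on the other side, at 56.4 in control against 67.5 in Cbs null. The summed signal of all 9 was 10687.5 in control against 4799.2 in Cbs null, with none under the floor on both arrays. Gzmc, Gzmd and Gzma (1247.7 in control and 557.4 in Cbs null) were at least 2-fold lower, and Klrd1, a receptor chain, had the highest ratio of the 8, at -0.50. Among 9 decidual and stromal markers compared the median was 0.02, and the summed signal of all 10 on the arrays was 14591.6 in control against 14990.5 in Cbs null. Bmp2, a growth factor of decidualization, was 2.31-fold lower, the lowest at -1.21, and Prl8a2, a decidual prolactin, was the highest, at 0.52. Whether these cell types carry the Ctnnd1 and Dsc2 signal was not tested.

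Markers of the conceptus were mostly on the higher side where they passed the filter. For trophoblast, 6 of 10 markers on the arrays were compared, 5 above 0 and 1 below, with a median of 0.78. The summed signal of all 10 was 1291.2 in control against 2084.0 in Cbs null, and Cdx2 and Elf5 were under the floor on both arrays. Krt7 and Krt18, 2 of the 6 compared, are in the epithelial list as well, and Krt18 alone gave 539.9 of the sum in control and 839.6 in Cbs null. Tpbpa (228.1 in control and 598.7 in Cbs null) was the highest, at 1.39, Prl2b1 was also at least 2-fold higher, at 1.23, and Eomes was the lowest, at -0.58. For yolk sac endoderm 4 of 9 were compared, with a median of 0.92, a highest ratio of 3.96 for Afp (24.7 in control and 384.6 in Cbs null), 1.78 for Ttr and a lowest of 0.00 for Rbp4. The summed signal of all 9 was 1145.2 in control against 1636.0 in Cbs null, and Apoa4 and Apob were under the floor on both arrays. Most of that sum came from Rbp4 (522.0 in control and 523.2 in Cbs null) and Sox17 (504.9 in control and 522.3 in Cbs null). Afp, Ttr, Prl2b1 and Prl4a1 were below the filter value in control and passed through their Cbs null signal.

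The remaining marker lists had no member 2-fold apart. Endothelial markers had a median of -0.06 over 9 compared, from Pecam1 at -0.26 to Tek at 0.26, and a summed signal of all 9 of 2316.0 in control and 2242.1 in Cbs null. Smooth muscle markers had -0.04 over 7, from Des at -0.19 to Lmod1 at 0.27, with 28271.3 in control and 27477.3 in Cbs null. Macrophage markers had 0.40 over 8, from Adgre1 at -0.00 to Cd68 at 0.83, with 4007.8 in control and 5252.3 in Cbs null. Mesothelial markers had 0.25 over 3, from Wt1 at 0.06 to Upk3b at 0.75, with a sum over all 4 on the arrays of 1083.2 in control and 1209.9 in Cbs null; Krt19 is in the epithelial list too. Fat cell markers had 0.76 over 2, Adipoq at 0.72 and Fabp4 at 0.81, with a sum over all 4 on the arrays of 2165.0 in control and 3692.9 in Cbs null, and Lep was under the floor on both arrays. Their part in the junction gene ratios was not tested either.

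**Figure D4:**
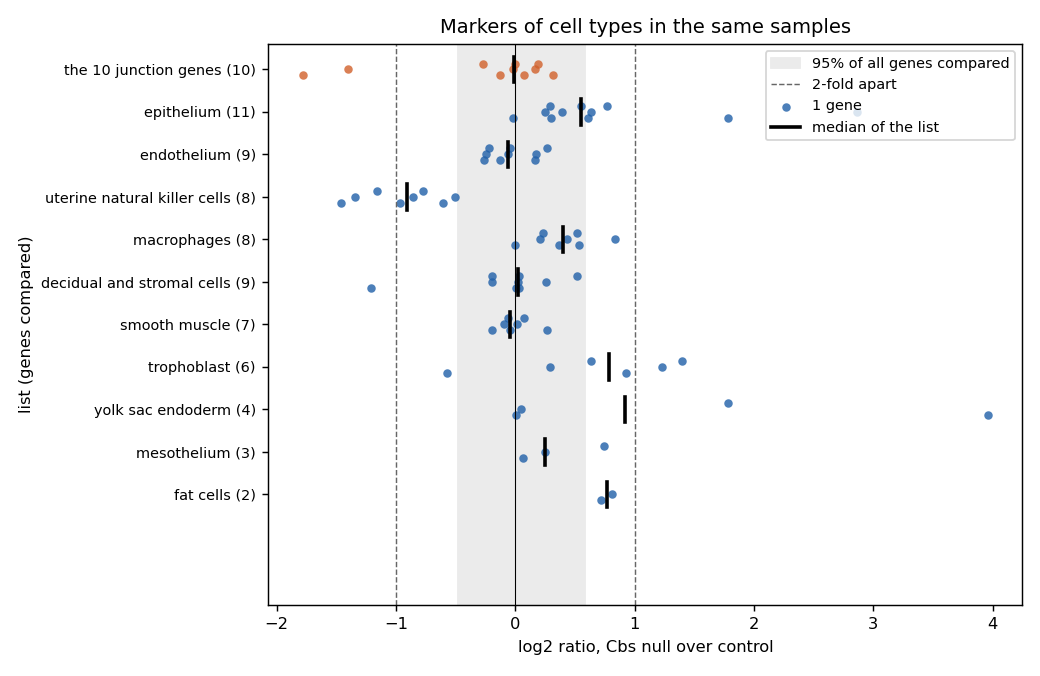
Log2 ratio of Cbs null over control for the 10 junction genes (orange) and for the markers compared of each of 10 cell types (blue), with the number of genes in brackets; black bars are medians, the grey band holds 95% of all genes compared and dashed lines mark 2-fold. Epithelial markers have a median of 0.55 and natural killer cell markers one of -0.91, while the junction genes have -0.01 with Ctnnd1 and Dsc2 far to the left.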

How the data were processed

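Tri reagent and a column kit were used to extract total RNA, of which 2 microg went into biotinylated cRNA, per the labels' protocols. The values deposited by the authors are linear intensity, with 1 signal for each probe set on each array, and the submitters' processing notes name GCOS 1.4 as the software. Its algorithm and detection calls, and a genome build, are not named in those sources. Trimmed means were equal on both arrays, so no further scaling was done.

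Of 22690 probe sets, 64 controls were set aside. Names came from the platform annotation; 20380 probe sets had a single gene symbol, 20351 of them matched by identifier in a RefSeq gene table of GRCm38.p6, while 691 had several symbols and 1555 none and were left out. The floor, the filter at the median of mean signal (11315 probe sets kept) and the brightest probe set per gene are as described above. No test was possible with 1 array per group, and called means at least 2-fold apart. Promoter windows of 4 members came from a RefSeq table.

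The members and the lists of 135 pathway entries and 89 marker entries were chosen with earlier results of these data known. Named are all members, from each pathway list the genes at least 1.5-fold apart or else the brightest up to 2, from each marker list those 2-fold apart and both ends, and the 2 genes next to each 2-fold member in the order of ratios. Any other gene named was picked after its values were seen. The 11 alternatives changed scaling, floor, pseudocount (16), filter, summary over probe sets or multi-transcript probe sets. The script was tested on simulated data. Python 3.11, pandas 2.3.3 and statsmodels 0.14.6 were used.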

Additional observations from a re-analysis of the deposited data

How the results depend on the processing

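Ctnnd1 and Dsc2 stayed at least 2-fold lower under each of the 10 alternatives that gave them a value, with log2 ratios from -1.81 to -1.60 for Ctnnd1 and from -1.44 to -1.18 for Dsc2, both at their smallest size with a pseudocount of 16. Only the changes of scaling and the pseudocount moved these ratios. The other floors, the looser filters, the median over probe sets and the removal of multi-transcript probe sets left both values as they were. Those settings are therefore no added check of these 2 genes. With the filter at the 75th percentile neither gene was compared, as their mean signals, 178.95 for Ctnnd1 and 101.15 for Dsc2, were too dim. The 4 members left were Cdh1, Cdh11, Ctnnb1 and Ctnna1, and 0 of them were 2-fold lower. No member was 2-fold higher under any of the 11 alternatives, and the median of the members ran from -0.05 to -0.00. Each of the 102 values of single members moved by less than 0.30, the SD between probe sets of a gene. Ctnnb1 and Ctnna1 were the members whose sign differed between settings.

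The count of all genes at least 2-fold lower, 20 as reported, was 13 with a pseudocount, 79 with the filter at the 25th percentile and also with no filter, and 8 with the filter at the 75th percentile. That of genes at least 2-fold higher, 44 as reported, was 149, 149 and 23 with those 3 filters. The filters change how many dim genes are let in, and a pseudocount shrinks the ratios of dim genes by construction. No paired analysis was possible because each group has 1 array. Dim signals limit the probe sets below the filter, and with 1 array per genotype the spread between animals is unknown.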

Other observations

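Tight and gap junction genes, which seal or couple the same cells, did not show a 2-fold difference in any gene compared. Of all genes compared, 0.283% were 2-fold lower and 0.622% 2-fold higher. Below the filter, at dim signals, Cldn2, Cldn23, Marveld3 and Tjp3 read at least 2-fold higher in Cbs null, and no tight junction gene read 2-fold lower. For Tjp3 the signals were 14.6 in control and 37.3 in Cbs null. Tight junction genes had a median log2 ratio of 0.12 over 11 of 25 on the arrays, 7 above 0 and 4 below. Cldn3, a claudin of epithelium, was 1.70-fold higher in its brightest probe set (162.7 in control and 276.8 in Cbs null, at 0.77), and its 4 kept probe sets ran from 0.06 to 0.77. Tjp1, the scaffold ZO-1, read 883.7 in control and 811.5 in Cbs null, at -0.12. Cldn1, named after its value was seen, had the lowest ratio, at -0.57 (85.3 in control and 57.5 in Cbs null). Of the connexins, Gja1, connexin 43 of decidual cells, read 5126.9 in control and 3980.9 in Cbs null, at -0.36. Of its 6 kept probe sets 5 lay between -0.52 and -0.34, and the sixth, dim in control, was at 1.38 (62.8 in control and 163.8 in Cbs null). Gjc1, connexin 45, had -0.09.

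Direct targets of beta-catenin and its TCF partners had a median of 0.27 over 4 genes compared, all 4 above 0, where 55% of all genes compared were above 0. Ccnd1, cyclin D1, had 0.15 (712.7 in control and 789.0 in Cbs null), but its 3 kept probe sets had both signs, from -0.23 to 0.17. Myc had 0.24, from 258.9 in control to 305.4 in Cbs null. Apcdd1, a Wnt inhibitor picked after its value was seen, had the highest ratio, at 0.53, and its 3 kept probe sets also had both signs, from -0.12 to 0.53. Lef1, a DNA-binding partner of beta-catenin, read 14.5 in control and 10.2 in Cbs null, at the floor.

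Of the desmosomal and keratin genes below the filter, some read lower on the Cbs null array and others did not; those given here were picked after their values were seen. Krt5 read 49.5 in control and 23.9 in Cbs null, Krt14 28.7 in control and 12.5 in Cbs null, and Evpl, envoplakin, 28.4 in control and 15.1 in Cbs null. Dsc3, as given above, read lower as well. In contrast, Pkp3 read 41.7 in control and 42.3 in Cbs null, Pkp1 7.2 in control and 19.6 in Cbs null, and Ppl, which passed the filter, was at 0.50. At such signals, within a few times the floor of 14.3, the sizes of these differences are not firm.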
